A study of Mus musculus with 78 samples.

Results

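The genes described here are 33 genes of sterol and fatty acid synthesis, named by their textbook roles in a list drawn up for this work, with earlier results of these data known; no measured value enters the rule. All 33 were found among the 55367 gene symbols of the series, and they fall into 7 genes of the mevalonate steps, 11 enzymes of the route from squalene to cholesterol, 4 regulators of the sterol response, 1 sterol carrier and 10 genes of fatty acid synthesis and modification. Messenger RNA was sequenced in 78 libraries from 7 brain regions of 12 adult mice, 6 with a constitutive deletion of Acss2 (ACSS2 KO) and 6 wild type (WT), with 3 females and 3 males of each genotype. The strain was C57BL6/J. The deletion was made with CRISPR/Cas9 and a guide pair around exon 3 to exon 7, and it is carried by every cell of the animal. All 12 mice were housed singly and drank ethanol, so that no ethanol-free group enters any comparison. After 1 week of habituation they had a 15% ethanol bottle beside water for 2 h on days 1 to 3 and for 4 h on day 4 of a drinking-in-the-dark schedule (a rodent model of binge-like drinking), and in the following week the same schedule with ethanol alone. Each region gave 1 library per mouse, and both striatal and both hippocampal regions were read in all 12 mice, amygdala and cortex in 6 KO and 5 WT mice, and prefrontal cortex in 4 and 4.

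Sterols and fatty acids share a starting unit, acetyl-CoA, which ACSS2 makes from acetate. In the mevalonate steps acetyl units are joined (Acat2, Hmgcs1), phosphorylated (Mvk, Pmvk), decarboxylated (Mvd), isomerised (Idi1) and condensed to farnesyl diphosphate (Fdps); Fdft1 and Sqle then make squalene and its epoxide, Lss closes the rings, and a series of demethylases, reductases and isomerases ends in cholesterol. On the fatty acid side Acaca and Acacb make malonyl-CoA, Fasn builds palmitate with NADPH supplied in part by malic enzyme (Me1), Elovl5 and Elovl6 lengthen the chain, and Scd1, Scd2, Fads1 and Fads2 place double bonds. Both arms are known targets of the SREBP transcription factors (Srebf1, Srebf2), which Scap escorts out of the endoplasmic reticulum and Insig1 holds back when sterol is plentiful. The brain makes nearly all of its own cholesterol; oligodendrocytes make it for myelin and astrocytes supply neurons.

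The promoters of the members were searched for the letters that SREBP and its known partners bind. A window of 250 bases before the RefSeq start site (build GRCm38.p6) was at hand for 26 of the 33 members. The sterol regulatory element was spelled TCACNCCAC, the NF-Y box CCAAT and the Sp1 box GGGCGG, each on both strands, and no pair of them overlaps in the window printed here. A gene was counted once if any of its windows held the letters, and the 26 members had 33 windows. The element was found for 1 of 26 members (3.85%) and for 331 of 27025 genes in all (1.23%). The NF-Y box was found for 21 of 26 members (80.8%) against 37.5% of all genes, and the Sp1 box for 20 of 26 (76.9%) against 35.4%. The member with the sterol element was Hmgcs1, the synthase of the first committed sterol step, and its window, chr13:119690101-119690350 on the plus strand, is shown because it holds all 3 sets of letters and because Hmgcs1 and Sqle were among the most closely covarying members. Capitals mark the matches, and ATTGG and CCGCCC are the NF-Y and Sp1 boxes read on the other strand.
Hmgcs1: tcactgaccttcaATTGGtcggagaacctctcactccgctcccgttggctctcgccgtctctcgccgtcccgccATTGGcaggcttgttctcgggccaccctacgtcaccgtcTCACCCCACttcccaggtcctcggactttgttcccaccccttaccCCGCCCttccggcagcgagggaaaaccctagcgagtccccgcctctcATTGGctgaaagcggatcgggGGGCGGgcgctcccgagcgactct
In this window the sterol element begins 137 bases before the RefSeq start site, the nearest NF-Y box 45 and the nearest Sp1 box 24. GENCODE M21 places the start of Hmgcs1 farther downstream, at 119690379. The bases just after the RefSeq start were not found near the start of a GENCODE transcript of the gene. The distances therefore hold for the RefSeq start only. A match of letters is a description of the window and not a measured binding site.

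The libraries fall into a deeper and a shallower set. The 47 libraries of the amygdala, dorsal hippocampus and both striatal regions held 4454420 to 14487778 counts, and the 31 of cortex, prefrontal cortex and ventral hippocampus held 629635 to 1228828. Depth and region cannot be told apart between the sets, so that regions were tested only within a set. Values below are CPM, a gene's counts scaled to a common library total; the limit that 3 counts allow was 0.207 to 0.673 CPM in the deeper and 2.44 to 4.76 CPM in the shallower set, for counting error only. Cell type markers went against the label of 7 libraries, and sex-linked genes against that of 1 more. Of the 24 striatal libraries, 5 had a mean log2(CPM + 1) of 8 striatal projection neuron markers between 3.96 and 7.16, against 8.21 to 9.67 in the other 19. These were the ventral striatum of KO male NQ10, WT female NQ11 and WT male NQ13, and the dorsal striatum of KO male NQ10 and WT female NQ23. The ventral hippocampus of KO female NQ6 had 8.49 for the same markers, against 3.18 to 4.10 in the other 11. The dorsal hippocampus of WT female NQ23 had 5.65 for excitatory neuron markers, against 6.49 to 7.09 in the other 11. The library labelled prefrontal cortex of WT female NQ23 had 0 CPM of Xist and 73.4 CPM of Ddx3y. Part of the results that rest on these 8 libraries are given with and without them. Others are given with them only. Among these are the per-mouse edgeR values and the member counts for striatum against dorsal hippocampus. The member counts for cortex against prefrontal cortex and for the shallower set as a whole are also given with them only.

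Compared per kilobase of exon, the most abundant member was Scd2, a stearoyl-CoA desaturase, with a mean of 257 CPM per kb over the 78 libraries. Fads1 (59.4 CPM per kb), Hmgcs1 (58.7), Fads2 (56.4) and Scd1 (41.9) followed, and all but Hmgcs1 are fatty acid desaturases. Among the regulators Srebf2, the sterol-side factor, was highest at 29.9 CPM per kb and Srebf1, the lipogenic factor, lowest at 10.2. In the squalene-to-cholesterol route levels ran from 17.99 CPM per kb for Fdft1, which makes squalene, down to 3.71 for Lss, which closes the sterol rings. The sterol carrier Stard4 stood at 5.77 CPM per kb. On the fatty acid side Acacb was lowest at 0.641 CPM per kb, below its sister carboxylase Acaca at 2.62. Fdps had the lowest level of all, 0.322 CPM per kb, with 0 counts in 9 of 78 libraries. Reads of Fdps may be divided with copies of its sequence: 26.2% of its 50-base stretches also occur in other annotated genes. The same holds for Acat2 (39.1%), Acaca (30.4%), Me1 (28.3%), Fdft1 (26.5%), Idi1 (25.3%) and Hmgcs1 (11.6%), whose values are uncertain to that extent.

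The mean of log2(CPM + 1) over all 33 members was, in the deeper set, 5.79 ± 0.08 (SD, n = 11 libraries) in amygdala, 5.62 ± 0.14 (n = 12) in dorsal striatum, 5.61 ± 0.21 (n = 12) in ventral striatum and 5.49 ± 0.16 (n = 12) in dorsal hippocampus. In the shallower set it was 5.75 ± 0.11 (n = 8) in prefrontal cortex, 5.70 ± 0.15 (n = 12) in ventral hippocampus and 5.69 ± 0.06 (n = 11) in cortex. The 2 striatal regions, and the 3 shallower regions, did not differ beyond their spread, and amygdala and dorsal hippocampus lay farthest apart. The range was 5.66 to 5.95 in amygdala and 5.31 to 5.87 in dorsal hippocampus; without the dorsal hippocampal library of NQ23 the latter ended at 5.63, and the 2 regions did not overlap. Without the libraries that go against their labels the means were 5.59 ± 0.13 (n = 10) in dorsal striatum, 5.53 ± 0.155 (n = 9) in ventral striatum, 5.45 ± 0.12 (n = 11) in dorsal hippocampus, 5.72 ± 0.14 (n = 11) in ventral hippocampus and 5.76 ± 0.12 (n = 7) in prefrontal cortex.

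**Figure D1:**
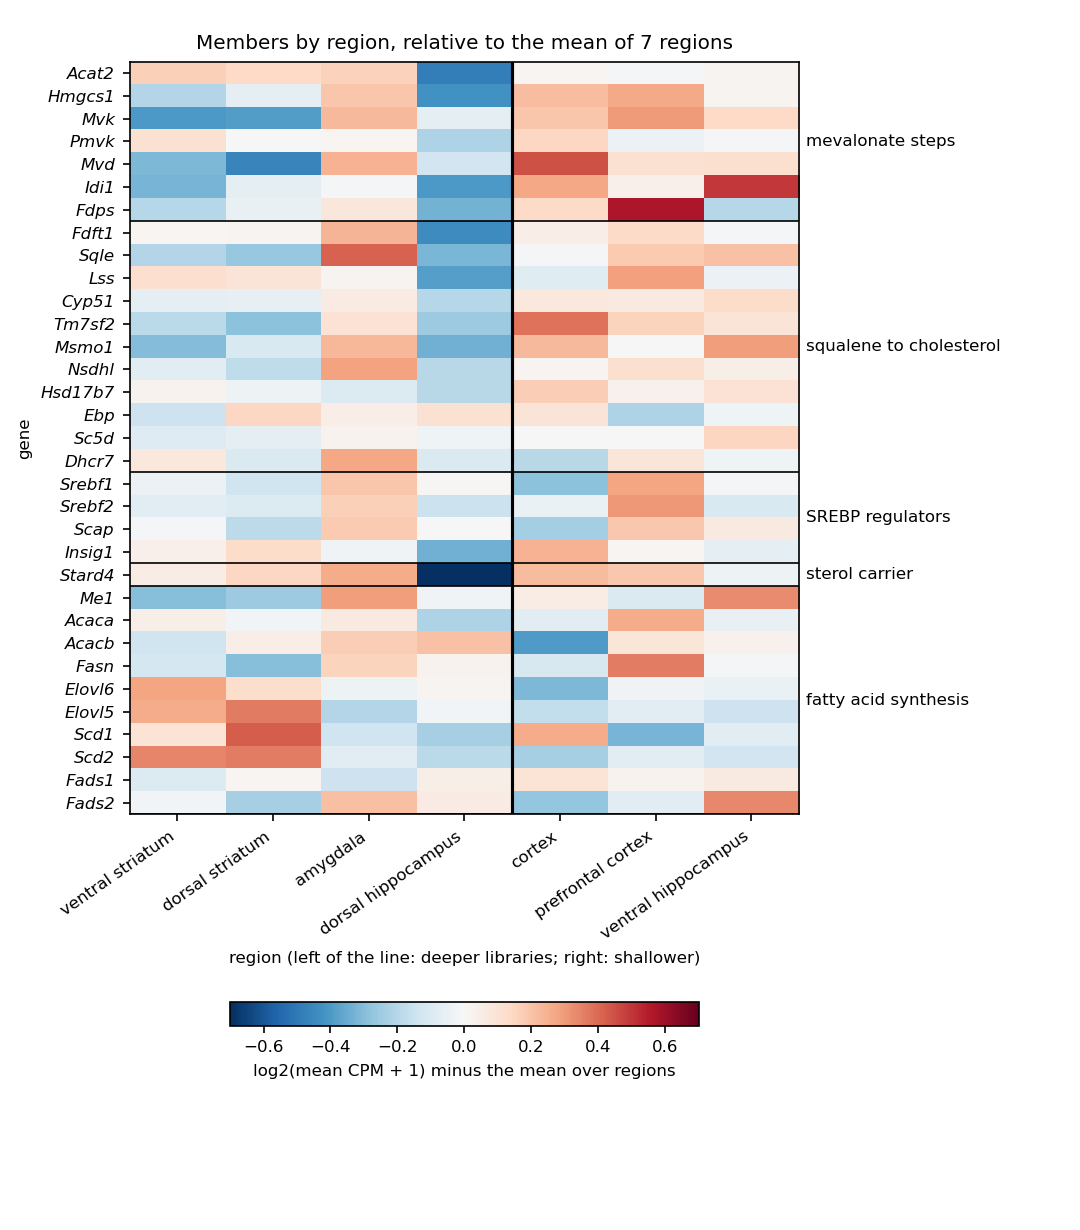
Mean level of each of the 33 members (rows, grouped by role) in 7 regions (columns), as log2(mean CPM + 1) minus the gene's mean over the regions; red is above and blue below that mean. Stard4 is lowest in dorsal hippocampus, and Scd2 and Elovl5 are highest in the striatum; the vertical line divides the deeper from the shallower libraries.

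Within the deeper set, the question put to each member was whether its level differed between the 4 regions. Several sterol genes, among them Hmgcs1, Sqle and Mvd, were higher in amygdala than in dorsal hippocampus, and Sqle, Mvd and Mvk were higher there than in either striatal region. Scd2 and Elovl5 were higher in both striatal regions than in amygdala, Scd1 passed for dorsal striatum (0.61) and stood at 0.21 for ventral striatum (adjusted p = 0.378), and Stard4 was low in dorsal hippocampus. In edgeR's quasi-likelihood test, with Benjamini-Hochberg adjustment over 15140 genes and a threshold of 0.05, 25 of 33 members (75.8%) differed between regions, where 76.6% of all genes did. The share of members is thus that of genes at large. The 8 members that did not pass were Fdps, Pmvk, Srebf1, Cyp51, Acaca, Sc5d, Acacb and Hsd17b7. Without the 6 deeper libraries that go against their labels 28 of 33 members passed, and 81.4% of all genes. The pairwise contrasts that follow share regions and are not independent of each other. Bulk RNA does not separate more cells of a type from more RNA per cell.

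Stard4, a carrier that moves cholesterol between membranes, showed the largest difference. It ranged from 11.6 through a median of 18.3 to 26.04 CPM in the 12 dorsal hippocampal libraries. In amygdala it ranged from 30.8 (median 38.1) to 44.5 CPM, in dorsal striatum from 26.4 (median 32.03) to 55.4 and in ventral striatum from 22.5 (median 31.4) to 55.1. Every amygdala and dorsal striatum library lay above every dorsal hippocampal one, while ventral striatum overlapped with it. The log2 fold change against dorsal hippocampus was 1.07 (SE 0.13, edgeR adjusted p = 1.4e-08) for amygdala, 0.98 (SE 0.13, adjusted p = 2.1e-08) for dorsal striatum and 0.84 (SE 0.13, adjusted p = 5.3e-07) for ventral striatum. Without the libraries that go against their labels the 3 values were 1.16, 0.99 and 0.89. Leaving out any 1 mouse kept each of them past the threshold.

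Between amygdala and dorsal hippocampus 15 of 33 members passed (45.5%), against 38.6% of all genes. Of these 14 were higher in amygdala, while among all genes 19.8% passed as higher there and 18.8% as lower. All 7 mevalonate genes were higher in amygdala and 5 of them passed; of the 11 squalene-to-cholesterol genes 10 were higher and 7 passed. Hmgcs1 ranged from 285 (median 307) to 349 CPM in amygdala and from 152 (median 192) to 240 CPM in dorsal hippocampus, with no overlap (log2 fold change 0.57, SE 0.12, edgeR adjusted p = 0.00015). Sqle, the squalene epoxidase, ranged from 73.6 (median 84.8) to 117 CPM against 41.4 (median 53.1) to 62.3 CPM, again without overlap (0.69, SE 0.13, adjusted p = 5.6e-05). Fdft1 was higher by 0.63 (SE 0.11, adjusted p = 1.1e-05), Acat2, the cytosolic acetoacetyl-CoA thiolase, by 0.62 (SE 0.09, adjusted p = 4.6e-07), and Fdps by 0.69 (SE 0.26, adjusted p = 0.03). The call on Fdps was lost without mouse NQ1 (adjusted p = 0.076), NQ4 (0.059), NQ12 (0.077) or NQ13 (0.051). Srebf2 was higher in amygdala by 0.26 (SE 0.07, adjusted p = 0.0035). Markers of several cell types also differed: all 8 striatal projection neuron markers were higher in amygdala and 6 passed (mean log2 level 3.92 to 7.52, against 3.52 to 4.205 in dorsal hippocampus), and 3 each of the 11 oligodendrocyte, 8 astrocyte, 7 microglia and 4 endothelial markers passed as lower. None was at 0, and their part in these differences was not tested. The only member called lower in amygdala was the delta-5 desaturase Fads1, at -0.25 (SE 0.07, adjusted p = 0.0069). Without the 6 deeper libraries that go against their labels 21 of 33 members passed, among them all 7 mevalonate genes, and 44.4% of all genes.

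Against the striatum, more of the sterol genes were higher in amygdala than lower. Of the 7 mevalonate genes 6 were lower in ventral striatum than in amygdala and 4 passed, and of the 11 squalene-to-cholesterol genes 9 were lower and 5 passed; in dorsal striatum 6 were lower with 2 passing, and 8 lower with 5 passing. Lss, at 0.09 and 0.10, was not lower in either striatal region. From ventral striatum to amygdala 16 of 33 members passed (48.5%), 13 of them lower in striatum and 3 higher, where 46.3% of all genes passed, 23.5% lower and 22.7% higher. From dorsal striatum to amygdala 17 passed (51.5%), 13 lower and 4 higher, where 54.8% of all genes passed, 27.5% lower and 27.4% higher. Without the libraries that go against their labels 23 and 19 of 33 members passed, and 50.3% and 61.1% of all genes. Mevalonate kinase Mvk ranged from 8.73 (median 13.7) to 19.99 CPM in ventral striatum, from 10.3 (median 12.8) to 19.5 in dorsal striatum and from 17.6 (median 21.6) to 24.1 in amygdala, so that only the highest striatal libraries reached the amygdala range. Its log2 fold change was -0.69 (SE 0.12, edgeR adjusted p = 8.0e-06) from ventral and -0.63 (SE 0.12, adjusted p = 1.7e-05) from dorsal striatum. Mvd, which decarboxylates mevalonate diphosphate, was lower by -0.61 (SE 0.12) and -0.73 (SE 0.12). Sqle differed by -0.65 (SE 0.13) and -0.67 (SE 0.13). Me1 was lower by -0.63 (SE 0.14) in ventral and -0.54 (SE 0.14) in dorsal striatum, and Msmo1, the sterol C-4 methyl oxidase, by -0.57 (SE 0.09) in ventral striatum. All of these passed in edgeR, and the largest adjusted p among them was 0.001. Fasn, which builds palmitate, ranged from 202 (median 239) to 307 CPM in ventral striatum, from 155 (median 225) to 280 in dorsal striatum and from 235 (median 296) to 373 in amygdala. It was lower than in amygdala by -0.28 (SE 0.08, adjusted p = 0.003) and -0.43 (SE 0.08, adjusted p = 1.1e-05), with overlapping libraries.

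The members higher in striatum than in amygdala were Scd2, Elovl5 and Elovl6 for ventral striatum and Scd2, Scd1, Elovl5 and Fads1 for dorsal striatum. Fads2, also a desaturase, went the other way, at -0.43 (SE 0.12, edgeR adjusted p = 0.0019) from dorsal striatum to amygdala. Scd2 ranged from 1167 (median 1683) to 2439 CPM in ventral striatum and from 1236 (median 1764) to 2272 in dorsal striatum. In amygdala it ranged from 1034 (median 1191) to 1838 and in dorsal hippocampus from 844 (median 1165) to 1752, so that the groups overlapped at their ends. Its log2 fold change from dorsal striatum was 0.46 (SE 0.10, edgeR adjusted p = 0.00027) to amygdala and 0.52 (SE 0.10, adjusted p = 3.2e-05) to dorsal hippocampus. Scd1 was higher by 0.61 (SE 0.19, adjusted p = 0.0055) and 0.66 (SE 0.18, adjusted p = 0.0022) in the same 2 contrasts, and Elovl5, which lengthens polyunsaturated chains, by 0.60 (SE 0.10, adjusted p = 3.6e-06) and 0.36 (SE 0.10, adjusted p = 0.0022). From ventral striatum, Scd2 was higher than in amygdala by 0.41 (SE 0.10) and Elovl5 by 0.46 (SE 0.10), and both passed. Markers of several cell types also differed. All 11 oligodendrocyte markers were higher in dorsal striatum than in amygdala and 11 of 11 passed, and none was at 0 in any region. In the same contrast all 8 striatal projection neuron markers and 3 of 7 microglia markers passed as higher. Of 4 endothelial markers 3 passed as higher and 1 as lower, and 3 of 5 general neuron markers passed as lower. Astrocyte and oligodendrocyte precursor markers were called both ways. The mean log2 level of the oligodendrocyte markers ranged from 7.46 to 9.44 in dorsal striatum, 7.34 to 8.98 in ventral striatum, 5.44 to 8.64 in amygdala and 6.34 to 9.02 in dorsal hippocampus. The 5 general neuron markers ranged from 9.06 to 9.71 in amygdala and 8.34 to 9.63 in dorsal striatum. The part of all these markers in the members' differences was not tested.

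**Figure D2:**
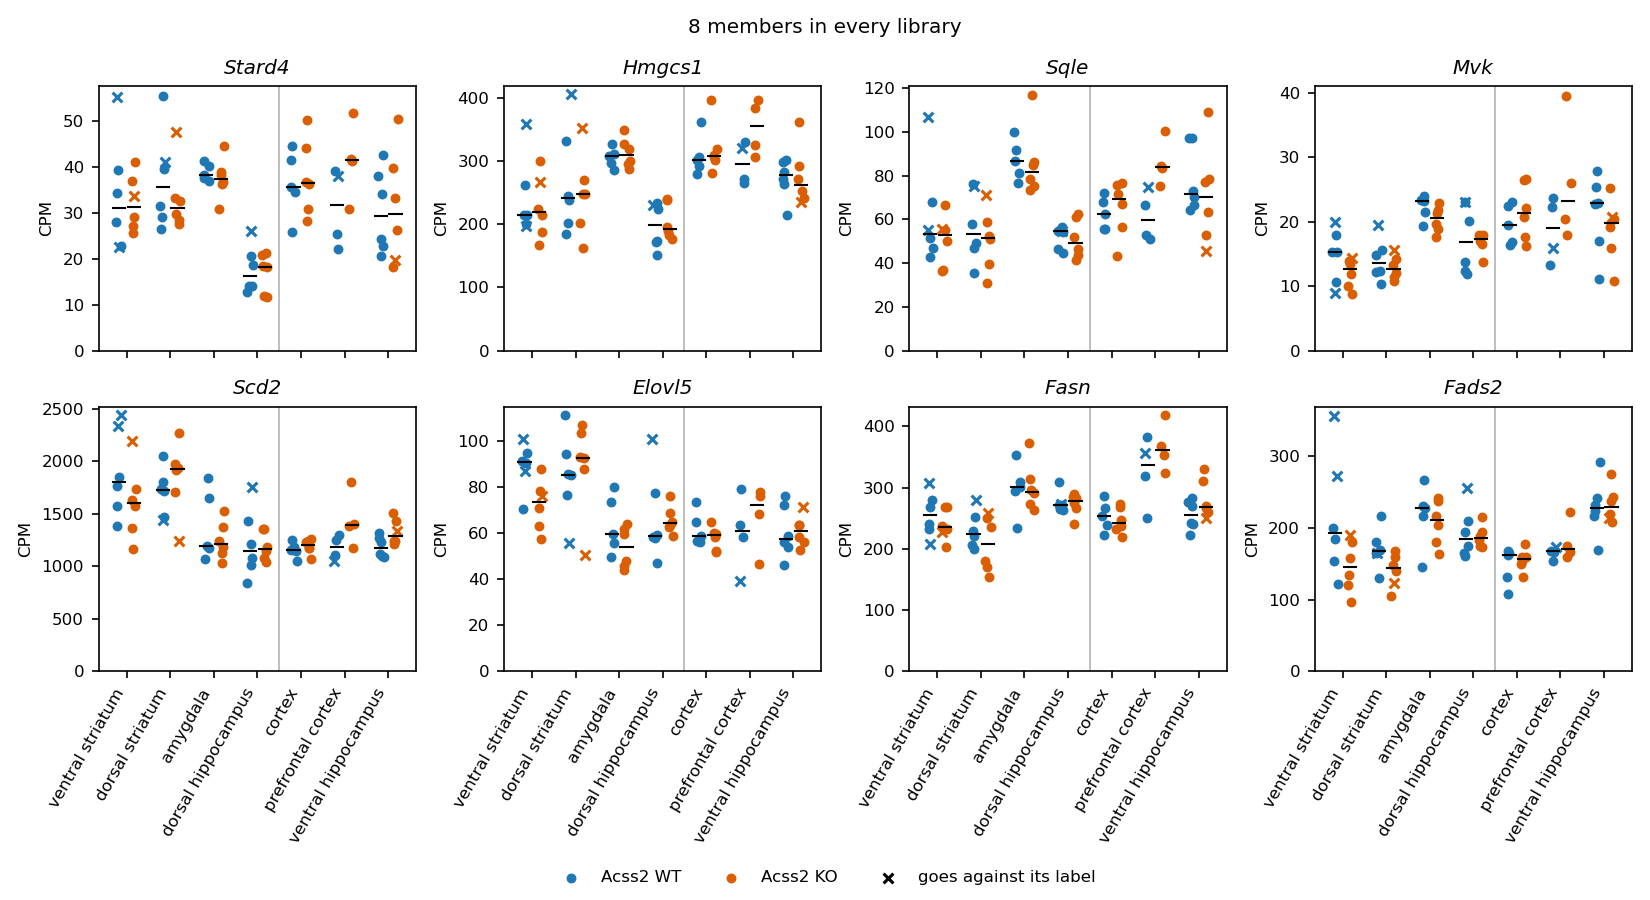
Level in CPM of 8 members in every library, by region (x axis), with WT in blue, KO in orange, crosses for libraries that go against their label and short black lines at each group's median. Stard4 is lowest in dorsal hippocampus, Sqle and Mvk are higher in amygdala than in striatum, and KO and WT overlap for most genes and regions.

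The remaining deeper contrasts mixed both directions. Between dorsal striatum and dorsal hippocampus 15 of 33 members passed (54.2% of all genes did), 10 higher and 5 lower in striatum, and between ventral striatum and dorsal hippocampus 13 passed (53.2% of all genes did), 8 higher and 5 lower. Acat2 was higher in both, by 0.62 (SE 0.09, edgeR adjusted p = 1.2e-07) and 0.61 (SE 0.09, adjusted p = 1.5e-07), and so was Lss, by 0.46 (SE 0.07, adjusted p = 1.8e-06) and 0.45 (SE 0.08, adjusted p = 2.6e-06). Insig1, the sterol-sensing brake, was higher by 0.45 (SE 0.12, adjusted p = 0.0022) and 0.31 (SE 0.13, adjusted p = 0.032), while Mvk was lower by -0.36 (SE 0.12, adjusted p = 0.0076) and -0.42 (SE 0.12, adjusted p = 0.0026). Hmgcs1 passed between dorsal striatum and dorsal hippocampus (0.33, SE 0.12, adjusted p = 0.015). Between the 2 striatal regions 2 members passed, where 13.9% of all genes did, 8.1% higher and 5.77% lower in ventral striatum: Idi1 was lower in ventral striatum by -0.35 (SE 0.11, adjusted p = 0.032) and Ebp, the sterol isomerase, by -0.34 (SE 0.10, adjusted p = 0.024). The call on Idi1 was lost without mouse NQ1 (adjusted p = 0.126), NQ3 (0.062), NQ4 (0.072) or NQ24 (0.058), and that on Ebp without NQ1 (0.058), NQ4 (0.071), NQ5 (0.072), NQ6 (0.072) or NQ12 (0.052). Without mouse NQ10 5 members passed, and the share of all genes in that fit is not given here. Without the 5 striatal libraries and the dorsal hippocampal one that go against their labels 8 members passed and 23.7% of all genes, with Scd1 (-0.76), Scd2 (-0.29), Elovl5 (-0.30), Fads1 (-0.28) and Msmo1 (-0.30) then also lower and Fasn (0.22) higher in ventral striatum.

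In the shallower set 31 of the 33 members passed the filter on low counts; Fdps and Acacb did not. Of these 10 differed between cortex, prefrontal cortex and ventral hippocampus (32.3%), below the 50.8% of all 11195 genes tested. From cortex to prefrontal cortex 6 passed (38.2% of all genes did). Srebf1 was lower in cortex by -0.47 (SE 0.11, edgeR adjusted p = 0.0009), Fasn by -0.39 (SE 0.08, adjusted p = 0.00022), Scap by -0.34 (SE 0.10, adjusted p = 0.0093) and Srebf2 by -0.27 (SE 0.08, adjusted p = 0.011). Scd1 was higher in cortex by 0.69 (SE 0.14, adjusted p = 0.00025) and Msmo1 by 0.33 (SE 0.11, adjusted p = 0.017); the call on Msmo1 was lost without mouse NQ1 (adjusted p = 0.051), NQ3 (0.080) or NQ4 (0.058). Of the markers, 5 of 8 for astrocytes and 2 of 5 for neurons passed as higher in cortex, 1 for astrocytes passed as lower, and all 3 for oligodendrocyte precursors passed as lower (mean log2 level 3.53 to 4.68, against 4.76 to 5.51 in prefrontal cortex). Also called lower in cortex were 2 of 7 for microglia, 1 of 11 for oligodendrocytes and 2 of 8 for striatal projection neurons. The mean log2 level of the striatal markers ranged from 3.71 to 5.91 in cortex and from 4.05 to 7.598 in prefrontal cortex. None of these was at 0, and their part was not tested. Srebf1 ranged from 26.6 (median 47.4) to 60.1 CPM in cortex and from 60.3 (median 67.7) to 92.3 in prefrontal cortex, with no overlap. Scd1 ranged from 194 (median 241) to 291 CPM in cortex and from 102 (median 153) to 228 in prefrontal cortex, and the groups overlapped.

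Ventral hippocampus stood out for Fads2, the delta-6 desaturase. It ranged there from 170 (median 228) to 293 CPM, in cortex from 108 (median 159) to 178 and in prefrontal cortex from 154 (median 168) to 223. The log2 fold change was -0.57 (SE 0.08, edgeR adjusted p = 9.1e-07) from cortex and -0.48 (SE 0.09, adjusted p = 0.00011) from prefrontal cortex to ventral hippocampus. From cortex to ventral hippocampus 6 members passed (29% of all genes did): beside Fads2 and Hmgcs1 (0.24, SE 0.08, adjusted p = 0.022, and 0.054 without the ventral hippocampus library that goes against its label), Insig1 was higher in cortex by 0.37 (SE 0.11, adjusted p = 0.011) and Scd1 by 0.39 (SE 0.13, adjusted p = 0.016), and Scap was lower by -0.26 (SE 0.09, adjusted p = 0.03). Tm7sf2, a sterol reductase, stood at 0.37 (SE 0.15, adjusted p = 0.05) and lost its call in most alternatives. The call on Scd1 was lost without mouse NQ13 (adjusted p = 0.051) or NQ24 (0.067), and that on Scap without NQ2 (0.103), NQ3 (0.052) or NQ4 (0.082). From prefrontal cortex to ventral hippocampus 6 members passed (30.2% of all genes did), with Srebf2 higher by 0.37 (SE 0.08, adjusted p = 0.00078), Fasn by 0.33 (SE 0.08, adjusted p = 0.0017) and Acaca by 0.32 (SE 0.12, adjusted p = 0.046) in prefrontal cortex, and Me1 (-0.48, SE 0.14) and Msmo1 (-0.35, SE 0.11) lower. The call on Acaca was lost without the libraries that go against their labels (adjusted p = 0.079). The 8 astrocyte markers, none at 0, were all lower in prefrontal cortex than in ventral hippocampus and 6 passed; their mean log2 level ranged from 7.66 to 8.40 and from 7.83 to 8.74. Between cortex (7.81 to 8.21) and ventral hippocampus, where the Fads2 difference was larger, the same markers went both ways: 4 of 8 were higher in cortex, with 1 called higher and 3 called lower. Their part in the Fads2 difference was not tested.

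The central comparison of the design asks what loss of Acss2 does. Acss2 itself had 0.971 to 13.96 CPM (median 7.32) in the 40 KO libraries and 35.9 to 73.8 CPM (median 51.8) in the 38 WT libraries, with no overlap in any region. Summed per mouse over the 4 regions that all 12 mice have, it fell by 2.89 on the log2 scale (SE 0.08, edgeR adjusted p = 8.5e-10), and it was the only gene of 16672 called (0.006%). The sum takes raw counts, so that each region weighs by its depth, and ventral hippocampus, of the shallower set, weighs least. In WT male NQ13 dorsal striatum gave 14487778 of 29245883 counts. The part of these weights in the per-mouse values was not tested. None of the 33 members was called in the per-mouse test. The log2 fold change was below 0 for 29 members and above 0 for 4, with a median of -0.06, where the median of all genes was 0.00 and 49.7% of them lay above 0. The members covary, so that they are not 33 separate observations. With the mouse as the unit, the mean log2(CPM + 1) of the 33 members was taken over the same 4 regions. It was 5.57 ± 0.11 (SD, range 5.43 to 5.72) in KO mice and 5.64 ± 0.11 (range 5.54 to 5.76) in WT mice, and the ranges overlapped. In limma-voom over the single libraries of all 7 regions, 24 members lay below 0 with all libraries (median -0.05) and 18 without the 8 that go against their labels (median -0.02). An unadjusted p below 0.05 was found for 1 member and for 593 genes in the whole table.

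The members with the smallest p per mouse were Fads2 and 4 enzymes between squalene and cholesterol. Fads2 ranged from 133 (median 168) to 180 CPM in KO mice and from 159 (median 192) to 241 CPM in WT mice, so that the groups overlapped (log2 fold change -0.22, 95% confidence interval -0.41 to -0.02, unadjusted p = 0.032, edgeR adjusted p = 1). Msmo1 ranged from 61.1 (median 66.8) to 74.1 CPM in KO and from 61.5 (median 75.2) to 83.2 CPM in WT mice (-0.14, interval -0.30 to 0.01). Sqle ranged from 41.8 (median 53.5) to 58.1 and from 47.8 (median 56.7) to 63.4 CPM (-0.12, interval -0.29 to 0.04). Cyp51, the lanosterol demethylase, stood at -0.11 (interval -0.26 to 0.04) and Sc5d, a sterol desaturase, at -0.07 (interval -0.17 to 0.03). The KO and WT ranges overlapped for each of the 5.

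The regulators lay near 0. Srebf2 ranged from 183 (median 194) to 216 CPM in KO and from 182 (median 207) to 215 CPM in WT mice (-0.03, interval -0.17 to 0.11), Srebf1 from 50.6 (median 54.4) to 61.0 and from 43.4 (median 57.8) to 66.3 CPM (-0.01, interval -0.19 to 0.17). Insig1 stood at -0.01 (interval -0.26 to 0.24). Hmgcs1 ranged from 192 (median 228) to 270 CPM in KO and from 187 (median 228) to 278 CPM in WT mice (-0.02, interval -0.23 to 0.19). The interval of Fasn was -0.17 to 0.07, of Acaca -0.25 to 0.06 and of Scd2 -0.16 to 0.16. Over all 33 members the widest interval was that of Fdps, -0.62 to 0.52. In counts simulated on these mice with known changes, 82% of genes changed by 1 on the log2 scale and 38.4% of those changed by 0.5 were called. Smaller changes, of the size of these estimates, were not simulated.

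**Figure D3:**
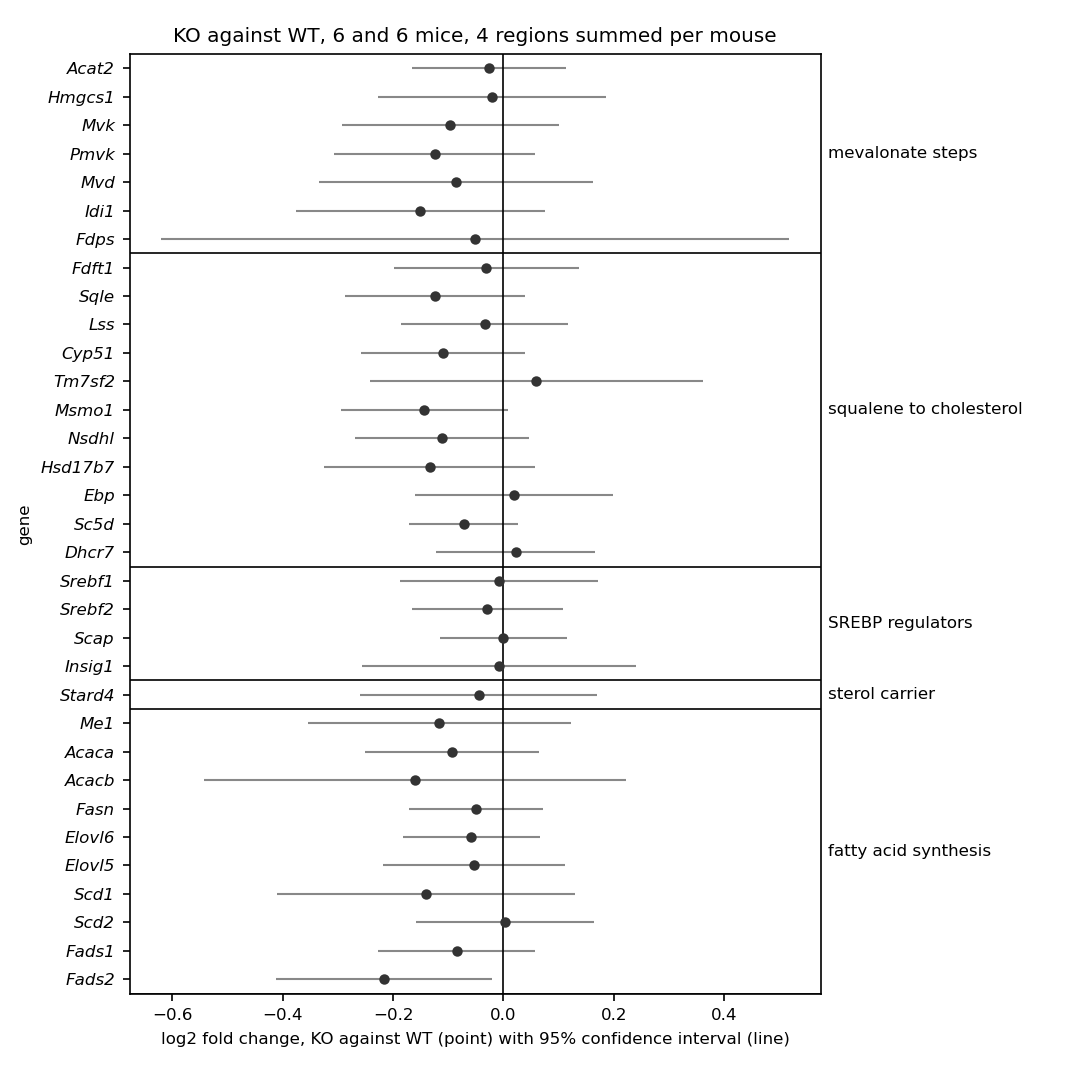
Log2 fold change of each member between 6 KO and 6 WT mice (points) with its 95% confidence interval (lines), from edgeR on counts summed over 4 regions per mouse. 29 of 33 points lie below 0, no member passed the adjusted threshold, and the interval of Fads2 alone excludes 0. The members covary, so that the points are not independent of each other.

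Region by region, 0 members were called in any of the 7 tests that pooled the sexes, by edgeR or by DESeq2. In counts simulated on the ventral striatum libraries, 64.9% of genes changed by 1 on the log2 scale and 10% of those changed by 0.5 were called. The KO tests of the other regions were not simulated. Acss2 was called in each of the 7 tests. It was the only gene called in 6 of the regions, which is 0.00721% of the genes tested in ventral striatum, 0.00702% in dorsal striatum and in dorsal hippocampus, 0.00675% in amygdala, 0.00977% in cortex and 0.00951% in ventral hippocampus. The number of members with an unadjusted p under 0.05 was 5 in ventral striatum, 2 each in amygdala, prefrontal cortex and ventral hippocampus, 1 each in cortex and dorsal striatum and 0 in dorsal hippocampus. Of all genes in the same tests, 1010 of 13878 had such a p in ventral striatum, 505 of 14813 in amygdala, 969 of 11300 in prefrontal cortex, 534 of 10515 in ventral hippocampus, 669 of 10236 in cortex, 226 of 14239 in dorsal striatum and 403 of 14235 in dorsal hippocampus. In ventral striatum 27 of 32 members lay below 0 (median -0.24, all genes 0.00). The 5 there were Tm7sf2 at 0.43 (SE 0.14), Elovl5 at -0.30 (SE 0.10), Acacb at -0.58 (SE 0.25), Fads2 at -0.53 (SE 0.23) and Msmo1 at -0.31 (SE 0.14), each with an edgeR adjusted p of 0.648. All 10 fatty acid genes lay below 0, with a median of -0.29. Fads2 ranged in ventral striatum from 96.2 (median 146) to 190 CPM in KO and from 122 (median 193) to 357 CPM in WT libraries, with overlap. Without the 3 ventral striatum libraries that go against their labels 26 of 32 members lay below 0, the median was -0.16, and 2 members, Tm7sf2 (0.48) and Elovl5 (-0.29), kept an unadjusted p under 0.05. All 10 fatty acid genes still lay below 0, with a median of -0.20. The 8 astrocyte and 11 oligodendrocyte markers were all lower in KO than in WT ventral striatum. The 8 striatal projection neuron markers were all higher, and of 7 microglia markers 1 was higher. None of these was called and none was at 0. The other lists went both ways, also with none called. Mean log2 levels of the astrocyte markers ranged from 6.57 to 7.87 in KO and 7.19 to 8.11 in WT. Those of the oligodendrocyte markers ranged from 7.34 to 8.98 and 7.72 to 8.71, and those of the striatal markers from 6.41 to 9.26 and 5.25 to 9.64. Their part in the ventral striatum values was not tested.

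In prefrontal cortex most members had the opposite sign: 25 of 31 members lay above 0 (median 0.14, all genes 0.00), and 11 of 11300 genes were called (0.0973%). All 11 squalene-to-cholesterol genes were above 0, with a median of 0.22. Sqle was at 100, 75.5 and 84.6 CPM in the KO females NQ4, NQ5 and NQ6 and 83.5 in the KO male NQ1, and at 53.1 and 74.6 in the WT females NQ11 and NQ23 and 66.7 and 51.0 in the WT males NQ12 and NQ3. Every KO library thus lay above every WT library (log2 fold change 0.47, SE 0.17, unadjusted p = 0.014, edgeR adjusted p = 0.391). Acat2 stood at 0.49 (SE 0.21, adjusted p = 0.536), with overlapping libraries. The mean log2 level of the 33 members ranged from 5.79 to 5.94 in the 4 KO and from 5.56 to 5.74 in the 4 WT libraries, also without overlap. Striatal projection neuron markers ranged from 5.96 to 7.598 in KO and 4.05 to 4.88 in WT libraries, with all 8 higher and 5 called. The 11 oligodendrocyte markers were all higher, with none called and mean levels from 6.62 to 8.82 against 5.98 to 6.94. None of either list was at 0, and their part in the members' values was not tested. Without the WT library of NQ23, 24 of 31 members and 10 of the 11 squalene-to-cholesterol genes lay above 0 (median of all 31, 0.12) and Sqle stood at 0.59 (SE 0.19, adjusted p = 0.229).

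The other regions gave medians closer to 0. In dorsal striatum 25 of 33 members lay below 0 (median -0.11), and without the 2 libraries there that go against their labels 22 did (median -0.03); without mouse NQ23 the median was 0.00 and 17 members lay above 0. In dorsal hippocampus 26 of 32 lay below 0 (median -0.03), and without its library of NQ23 19 of 32 lay above 0 (median 0.05). The medians were -0.02 in amygdala, 0.05 in cortex and 0.03 in ventral hippocampus.

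**Figure D4:**
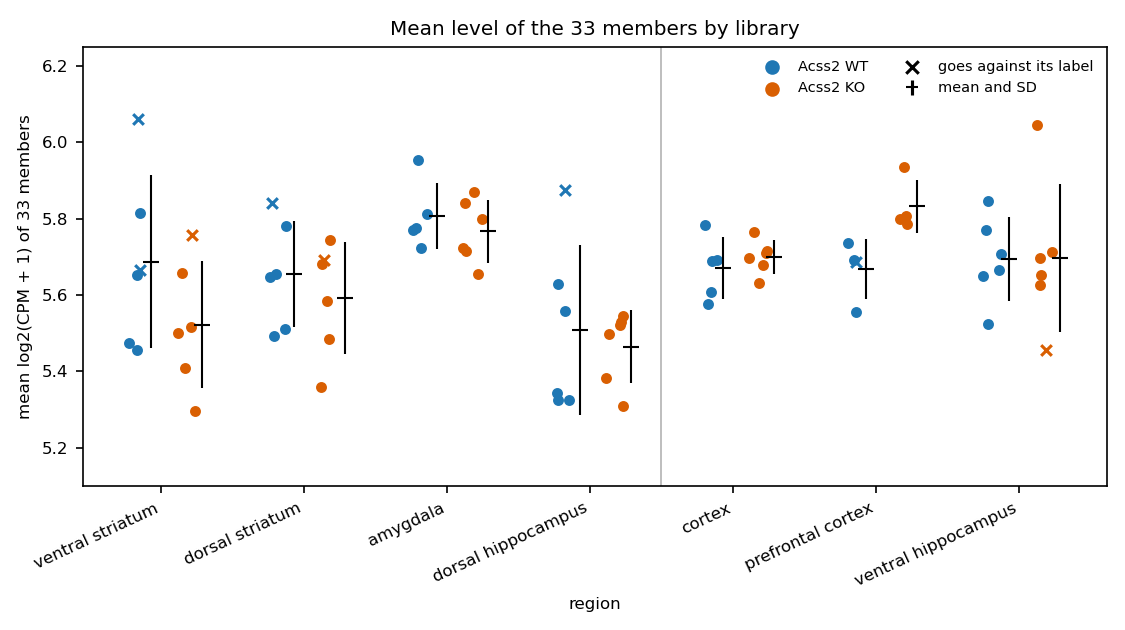
Mean log2(CPM + 1) of the 33 members in each library by region (x axis), WT in blue and KO in orange, crosses for libraries that go against their label, black bars for mean and SD. The y axis does not start at 0. Among the deeper regions the mean is highest in amygdala and lowest in dorsal hippocampus, and KO and WT do not overlap in prefrontal cortex.

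Split by sex, 0 members were called in any of 13 tests of KO against WT within 1 sex and region or of 6 tests of whether the KO difference depended on sex, by edgeR or DESeq2. Prefrontal cortex had 1 KO male and was not tested in males. Of all genes, the tests within 1 sex called 0 in ventral and dorsal striatum of either sex and in female amygdala, 0.00706% in male amygdala, 0.00721% and 0.00707% in male and female dorsal hippocampus, 0.0103% and 0.0398% in male and female cortex, 0.00996% and 0.00993% in male and female ventral hippocampus and 0.452% in female prefrontal cortex. That last test includes the WT library of NQ23, which goes against its sex label; without it a single WT library was left, which the fit takes to vary like the KO ones, and 317 of 11687 genes and 0 members were called. In male ventral striatum 27 of 32 members lay below 0 (median -0.37, all genes 0.02), with 5 at an unadjusted p under 0.05: Mvk at -0.53 (SE 0.20), Fads2 at -0.80 (SE 0.31), Elovl6 at -0.44 (SE 0.17), Elovl5 at -0.34 (SE 0.14) and Sc5d at -0.43 (SE 0.18), with edgeR adjusted p from 0.496 to 0.503; among all genes 1341 of 13623 had such a p. In female ventral striatum 25 of 32 lay below 0 (median -0.07) with 0 at an unadjusted p under 0.05, where 290 of 13605 genes did. The test of the difference between the sexes there gave 26 of 32 members above 0 (female minus male, median 0.27, all genes -0.03), none with an unadjusted p under 0.05 (542 of 14116 genes had such a p) and the smallest adjusted p at 0.943. Without the 3 ventral striatum libraries that go against their labels the male median was -0.24, the female median 0.01 and the median difference 0.24, with 7 of the 32 differences at an unadjusted p under 0.05 and the smallest adjusted p at 0.367. These libraries came from the KO males, WT males and WT females, groups of 3 libraries each. The number of all genes with such a p in that fit is not given here, so that the 7 are not a result about the members. Between females and males per mouse, 0 of 33 members passed, 9 of 16672 genes did (0.054%), and 2 members, and 550 genes, had an unadjusted p under 0.05. The members were Stard4 at -0.25 (SE 0.10) and Lss at -0.16 (SE 0.07), both lower in females.

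Across libraries of the same region, genotype and sex, members moved together. Deviations of log2(CPM + 1) from the group mean were correlated over the 47 deeper libraries; the libraries share mice, depth and cell makeup, so that these coefficients are a description. The median Pearson's r over the 528 pairs of members was 0.34, against 0.02 over all pairs of the 10215 genes with a mean of at least 10 CPM. It was 0.43 among the 19 sterol enzymes and carrier, 0.44 among the 10 fatty acid genes and 0.28 between the 2 arms. The closest pairs were Scd1 with Scd2 (0.91), Hmgcs1 with Sqle (0.90), Fads1 with Fads2 (0.88), Srebf1 with Scd2 (0.87), Sqle with Acaca (0.86) and Hmgcs1 with Cyp51 (0.86). Scd1 and Scd2 have similar sequences, and 4.56% of the 50-base stretches of Scd1 occur in other genes. The lowest were Hsd17b7 with Elovl5 (-0.58), Srebf2 with Acacb (-0.55) and Srebf2 with Fads1 (-0.53); Srebf1 and Srebf2 stood at -0.50. Without the 6 deeper libraries that go against their labels the median fell to 0.26, and Hmgcs1 with Sqle stood at 0.91, Scd1 with Scd2 at 0.87 and Srebf1 with Srebf2 at -0.47.

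Members followed the markers of several cell types. Fads2 and Fads1 each followed the astrocyte markers with r = 0.90, and Scd1 with 0.83. Scd2 (0.85), Elovl5 (0.82) and Srebf1 (0.81) followed the oligodendrocyte markers. Hmgcs1 (0.76) and Hsd17b7 (0.74) followed the general neuron markers, and Sqle the excitatory neuron markers (0.67). Acacb followed the choroid plexus markers (0.71). Srebf2 ran against the astrocyte markers (-0.59). Without the libraries that go against their labels these values were 0.83 for Fads2, 0.85 for Fads1 and 0.71 for Scd1, 0.79 for Scd2, 0.69 for Elovl5 and for Srebf1, 0.64 for Hmgcs1, 0.61 for Hsd17b7, 0.66 for Sqle, 0.71 for Acacb and -0.51 for Srebf2. How far cell makeup sets the levels of the members was not tested.

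**Figure D5:**
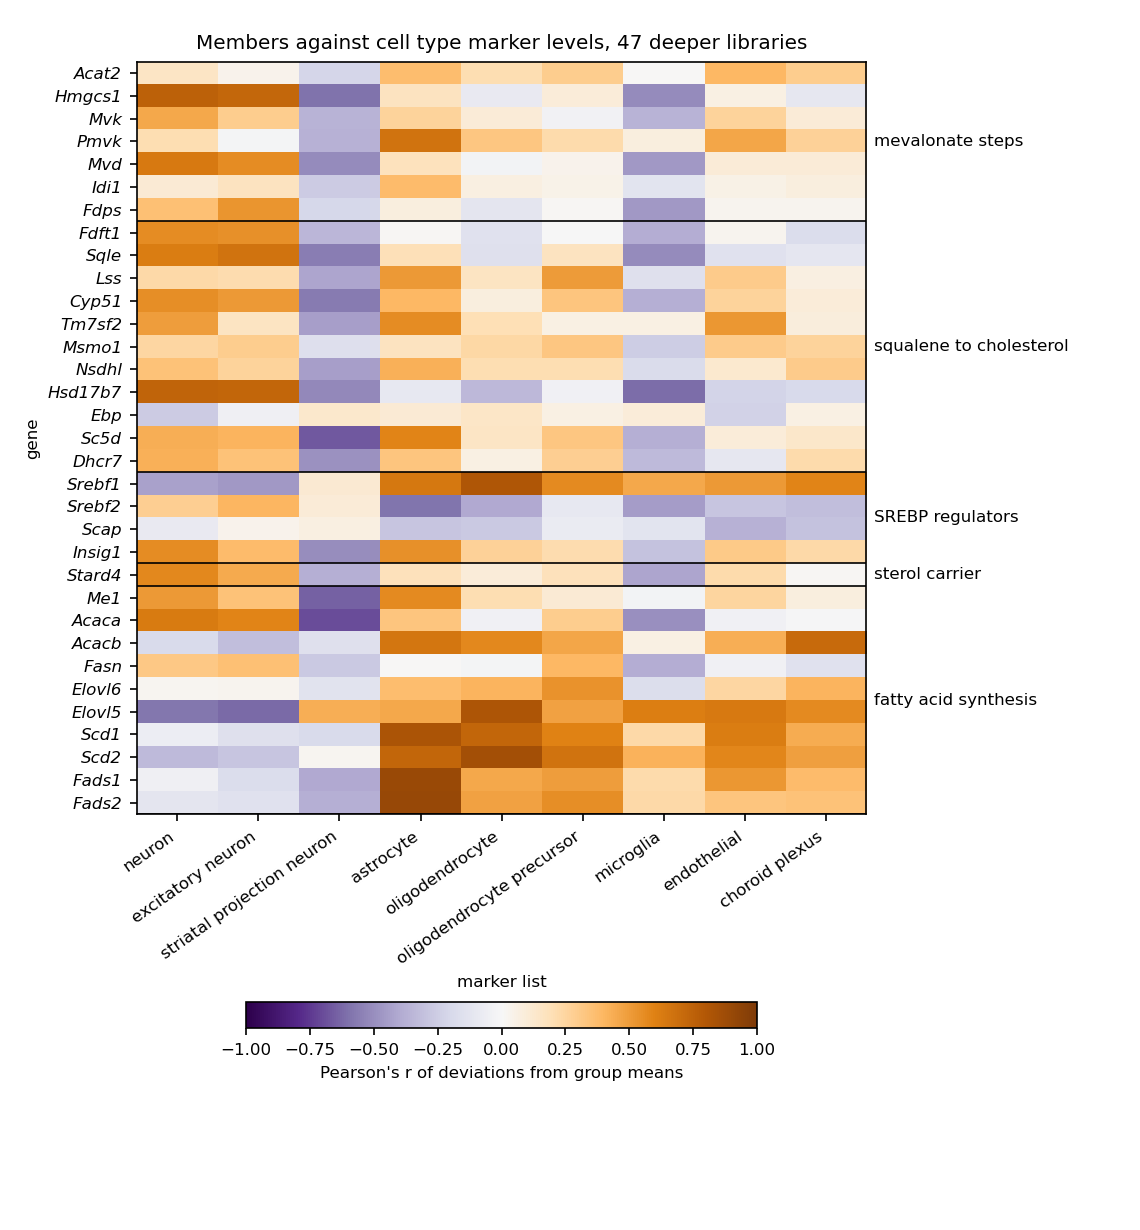
Pearson's r between each member (rows) and the mean level of 9 cell type marker lists (columns), from deviations of log2(CPM + 1) from group means over 47 deeper libraries; orange is positive and purple negative. Desaturases, Elovl5 and Srebf1 follow glial markers, and Hmgcs1, Sqle and Hsd17b7 follow neuronal markers.

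A second list of 34 genes around the same pathways (uptake, export, sterol sensing, acyl-CoA supply and further elongation steps) was read in the same fits. None of the 34 was called per mouse, 25 lay below 0, and the median was -0.03. Between amygdala and dorsal hippocampus 9 were called higher and 8 lower in amygdala, where 19.8% and 18.8% of all genes were. Thrsp, a lipogenic protein, was lower in amygdala by -1.41 (SE 0.21, edgeR adjusted p = 5.4e-07). From ventral striatum to dorsal hippocampus 15 were called higher and 6 lower in striatum, where 26.6% of all genes were called in each direction. Among them were Acly, which makes cytosolic acetyl-CoA from citrate, at 1.02 (SE 0.10, adjusted p = 4.9e-12), and Thrsp at -2.76 (SE 0.22, adjusted p = 6.5e-14). From cortex to prefrontal cortex 9 of 32 were called higher and 8 lower in cortex, where 19.3% and 18.9% of all genes were.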

How the data were processed

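Poly(A) RNA from 300 ng total RNA was sequenced in 78 libraries. The authors deposited raw counts per gene symbol; STAR 2.5.2a, SAMtools 1.1, HTSeq 0.6.1, DESeq2, R 4.0.2 and build GRCm38 (mm10) stand in the submitters' processing notes, without their settings, and whether strand was used is not given in the sources used here. CPM were computed from each library's total; exon lengths came from GENCODE M21. The main test was edgeR 4.0.16 (quasi-likelihood, TMM, filterByExpr with a minimum count of 10 and total of 15, R 4.3.3), with sex as a covariate for genotype and p-values adjusted over all genes tested; DESeq2 1.42.0 and limma 3.58.1 gave alternatives. Total counts per library (629635 to 14487778) set the precision. The fits were checked on simulated counts with 200 changed genes. Pairing comes from the mouse number, and libraries of a number were taken as 1 animal. The prefrontal library labelled female NQ23, with the sex-linked genes of a male, goes against this. Same-mouse deviations had a mean correlation of 0.03 over 69 deeper pairs and -0.01 over 24 shallower pairs.

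The members, gene lists, markers and contrasts were chosen with earlier results of these data known. The libraries that go against their labels were found by marker scores (below 7.5 or above 8 for striatal projection neurons, below 6 for excitatory neurons) and by sex-linked genes, limits set after the values were seen. Named genes are the 5 members with the smallest p per mouse, the 5 called members with the largest change in each region contrast, the highest and lowest of each role, and 8 fixed genes; others named in passing were chosen after their values were seen. p-values for KO against WT within a region compare single libraries of different mice. Tests between regions compare libraries that share mice. Their main fit had the combined class of sex and genotype as covariate and did not model the mouse. The mouse entered as a replicate block in an alternative fit only.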

Additional observations from a re-analysis of the deposited data

Results flagged for a closer look

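Of 208 groups of 4 to 10 libraries or mice examined for 1 value far from the rest by Dixon's criterion, 13 were marked; chance marks about 1 group in 20. Mouse NQ10, a KO male, gave 5 of them: Stard4, the sterol carrier, had a mean log2 level of 5.60 in its dorsal striatum (4.84 to 5.09 in the other KO mice, in a library that goes against its label), Srebf2 was at 174 CPM (200 to 214) and Acaca at 65.6 CPM (32.4 to 44.4) in its cortex, and in its ventral hippocampus the mevalonate genes had a mean of 4.86 (4.15 to 4.23) and Srebf2 was at 263 CPM (178 to 207). Mouse NQ1, a KO male, had 117 CPM of Sqle in amygdala (73.6 to 86.2 in the others) and 396 CPM of Hmgcs1 in cortex (281 to 318). In the prefrontal cortex of the KO female NQ5 the mean of all members was 5.94 (5.79 to 5.81) and that of the fatty acid genes 6.99 (6.71 to 6.74); this library had the highest oligodendrocyte marker level of the prefrontal libraries, 8.82, and its part was not tested. The regulators had a mean of 6.10 in the ventral striatum of the KO female NQ6 (6.45 to 6.62). Among WT males, NQ13 had 309 CPM of Fasn in dorsal hippocampus (263 to 273) and 55.0 CPM of Srebf1 in cortex (44.6 to 47.4), and NQ3 had 30.4 CPM of Acaca in cortex (43.8 to 48.6).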

How the results depend on the processing

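No member was called in any of the 28 tests of genotype, sex or their interaction, nor in any of the 351 fits of those tests with DESeq2 size factors, without a filter on low counts, with DESeq2's Wald test, without single mice, with limma-voom, in 3 deeper regions or without the libraries that go against their labels (an alternative chosen after seeing the data). Per mouse, limma-voom over all 78 libraries with the mouse as a random block gave 24 members below 0 and a median of -0.05, and 18 and -0.02 without the 8 libraries that go against their labels. With the mouse as a replicate block the region counts moved little: 25 of 33 members in the deeper and 11 of 31 in the shallower overall test, 17 for ventral striatum against amygdala, 16 for dorsal striatum against amygdala, 7 for cortex against prefrontal cortex and 5 for cortex against ventral hippocampus; Tm7sf2 (0.38) then lost its call in the last contrast. Between ventral and dorsal striatum 2 members passed, 1 with DESeq2's Wald test, 1 without the low-count filter, 8 without the libraries that go against their labels and 0 to 5 when single mice were left out. From cortex to ventral hippocampus 3 passed without the low-count filter. For the mouse block, the Wald test, the missing filter and single mice left out, the share of all genes called between regions is not given here. Those counts therefore show how the calls moved and are not a result about the members. The mean log2 level of the members rose with a pseudocount of 5 in place of 1, to 5.82 in ventral striatum, 5.84 in dorsal striatum, 5.97 in amygdala, 5.71 in dorsal hippocampus, 5.89 in cortex, 5.94 in prefrontal cortex and 5.90 in ventral hippocampus, and fell to 5.62 in cortex with 0.1, by construction of the scale. Values per mouse near 0 changed sign. With limma-voom Hmgcs1 stood at 0.0186 and Srebf2 at 0.00924. With limma-voom without the libraries that go against their labels Hmgcs1 stood at 0.0451, Insig1 at 0.0184, Srebf1 at 0.0288, Srebf2 at 0.00875 and Fasn at 0.00847. Without the low-count filter Scd2 stood at -0.00304. When single mice were left out, Hmgcs1 ran from -0.0724 to 0.0590, Insig1 from -0.0707 to 0.0562, Srebf1 from -0.0663 to 0.0348, Srebf2 from -0.0631 to 0.00494 and Scd2 from -0.0431 to 0.0384. The cause of these shifts was not tested. Depth limits Fdps, Idi1 and Acacb in the shallower set, where 3 counts are 2.44 to 4.76 CPM.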
